A study of Mus musculus with 24 samples.

Results

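Tcp11x2, Trnp1, Celf4, Parm1, Smim6 and Sult1a1 are 6 of the 17741 genes with a named probe on a mouse expression array, and their best known roles lie outside blood formation. They were chosen by name because their measured levels were higher in bone marrow progenitors of mice labelled Bap1 knockout (KO) than in those labelled wild type (WT). Their KO and WT values are therefore a description and carry no test. On the array Tcp11x2 bears the older name 1700008I05RIK and Smim6 the name 1110017F19RIK, and each gene was read from its brightest probe, meaning the probe whose average over the 24 arrays was highest.

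The study compared C57BL/6 mice labelled Bap1 KO with C57BL/6 mice labelled WT. The protocol in the labels, which is the same for both, says that tamoxifen was injected to bring about loss of Bap1 throughout the body. A group consisted of 2 mice, each measured on 3 arrays with Cy5-labelled RNA, so that 8 mice gave 24 arrays. The groups were KO LSK cells (mice 2 and 4), WT LSK cells (mice 1 and 3), KO myeloid progenitors (mice 7 and 8) and WT myeloid progenitors (mice 5 and 6). LSK cells are the marrow fraction without lineage markers that carries Sca1 and Kit, in which hematopoietic stem cells are enriched. The myeloid progenitors also lacked lineage markers and carried Kit, but not Sca1. No mouse gave both populations, and the labels give neither the allele or Cre driver behind the deletion, nor tamoxifen dose or timing, nor the sex or age of the mice.

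BAP1 is a nuclear deubiquitinase that, with ASXL proteins, removes ubiquitin from histone H2A and so opposes a mark laid down by Polycomb repressive complexes. Polycomb complexes are known for keeping genes of other lineages silent. Tcp11x2 belongs to the T-complex protein 11 family, whose founding member is a testis protein with a role in sperm. Trnp1 encodes a nuclear protein that regulates neural progenitor divisions and cortical folding in the mouse, and Celf4 a CELF family RNA-binding protein of neurons. Smim6 encodes endoregulin, a small membrane protein that inhibits the SERCA calcium pump. Parm1 encodes a mucin-like membrane protein first described as androgen-regulated in rat prostate, and Sult1a1 a cytosolic phenol sulfotransferase known from liver.

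The promoter windows shown are those of Tcp11x2, Trnp1 and Sult1a1. These genes were picked because their KO excess was larger in LSK cells than in myeloid progenitors, and because they differ in CpG content. That content was low in Tcp11x2 and Sult1a1 and higher in Trnp1. Each window is 300 bases of GRCm38.p6 from RefSeq, with 250 bases before the gene's start and 50 after it, written 5′ to 3′ on the gene's strand. Capitals mark CG dinucleotides. Tcp11x2 is on the minus strand at chrX:135693741-135694040, Trnp1 on the minus strand at chr4:133498501-133498800 and Sult1a1 on the minus strand at chr7:126676369-126676668.
Tcp11x2: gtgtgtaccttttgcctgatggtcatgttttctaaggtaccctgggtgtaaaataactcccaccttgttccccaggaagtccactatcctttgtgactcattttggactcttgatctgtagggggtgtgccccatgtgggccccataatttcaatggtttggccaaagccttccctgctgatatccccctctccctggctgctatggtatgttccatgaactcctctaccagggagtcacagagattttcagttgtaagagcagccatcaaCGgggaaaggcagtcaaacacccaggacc
Trnp1: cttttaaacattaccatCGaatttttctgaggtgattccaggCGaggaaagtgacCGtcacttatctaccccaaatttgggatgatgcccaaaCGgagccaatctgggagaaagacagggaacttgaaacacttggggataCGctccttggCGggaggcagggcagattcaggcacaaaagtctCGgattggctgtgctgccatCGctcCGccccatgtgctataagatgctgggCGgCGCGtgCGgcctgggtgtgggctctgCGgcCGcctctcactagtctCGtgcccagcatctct
Sult1a1: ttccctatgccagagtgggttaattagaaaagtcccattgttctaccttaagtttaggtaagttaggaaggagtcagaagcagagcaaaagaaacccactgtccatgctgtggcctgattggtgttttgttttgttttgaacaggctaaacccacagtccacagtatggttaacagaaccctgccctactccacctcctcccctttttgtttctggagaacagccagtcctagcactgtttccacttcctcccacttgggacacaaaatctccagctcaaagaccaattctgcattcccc

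The Tcp11x2 window held 1 CG dinucleotide and the Sult1a1 window 0, against 16 in the Trnp1 window. Among 32851 mouse promoter windows of the same length the median was 7. As few CG dinucleotides as in Tcp11x2 were found in 14.1% of them and as few as in Sult1a1 in 5.43%, while 33.0% held at least as many as Trnp1. Windows were also found for Parm1 (chr5:91517450-91517749, plus strand), with 16, and for Smim6 (chr11:115911767-115912066, plus strand), with 6. The 5 windows thus shared no common CpG content, as the histogram of CpG counts shows. The forkhead motif GTAAACA and the YY1 motif GCCATNTT, read on both strands and for factors known to bind BAP1, do not contain each other and occurred in 0 of the 5 windows, and in 3.65% and 6.05% of all windows. The lack of a match says only that these letters are not in these windows.

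**Figure D1:**
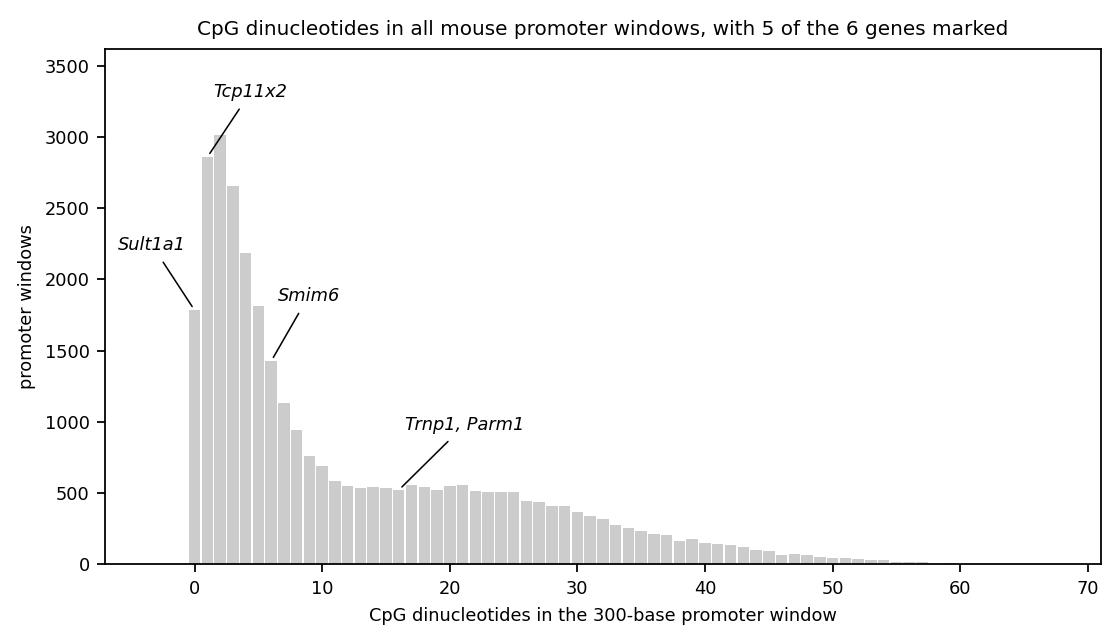
Number of CpG dinucleotides (x axis) in 32851 mouse promoter windows of 300 bases, with the number of windows on the y axis as bars. Lines mark the bars that hold Sult1a1 (0), Tcp11x2 (1), Smim6 (6), and Trnp1 and Parm1 (16 each).

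The array values are log2 intensities that the authors had normalized, and the marrow cells carried the markers of their sort as far as these could be read. Kit, the receptor used in both sorts, was between 12.76 and 13.49 in all 8 mice. Flt3, a receptor of early multipotent and lymphoid-primed cells, was 12.94 to 13.40 in the 4 LSK mice and 9.76 to 10.72 in the 4 myeloid progenitor mice. Ly6a, which encodes Sca1, had no probe under that name. Bap1 itself was not lower in mice labelled KO. Its log2 value was 11.96 and 11.84 in KO LSK cells, against 11.55 and 11.45 in WT LSK cells (difference 0.40 ± 0.18 SE, limma adjusted p = 0.321). In KO myeloid progenitors it was 11.67 and 11.85, against 11.54 and 11.59 in WT myeloid progenitors (difference 0.20 ± 0.18 SE, limma adjusted p = 0.843). How the Bap1 probe lies to the deleted part is not stated, so its level is no check of the labels. Kdm5d, a Y-linked gene, was 7.88 in WT mouse 1 and 8.15 in WT mouse 5, against 5.93 to 6.03 in the other 6 mice. Both high values thus fell in WT groups, 1 in each population, and differences without these mice are given below.

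A low end for the scale was taken from 624 probes of olfactory, vomeronasal and taste receptor genes, genes known from sensory cells. Their 95th percentile, computed in each mouse, ran from 7.12 to 7.57 over the 8 mice and is called the receptor bound here. Only 2 of the 6 genes, Tcp11x2 and Trnp1, lay under the bound in all WT mice of both populations. In WT LSK cells 4 of the 6 lay over it in both mice, and in WT myeloid progenitors 3 did. In KO cells 6 lay over it in LSK cells and 5 in myeloid progenitors. With the 99th percentile (7.97 to 8.65) the counts became 5 in KO and 3 in WT LSK cells, and 4 in KO and 1 in WT myeloid progenitors. The 6 genes as a group were therefore not silent in WT cells, and a change from under the bound in WT mice to over it in all KO mice of both populations was seen among their brightest probes for Tcp11x2 alone. At the 99th percentile both KO myeloid progenitor mice lay under the bound for Tcp11x2 as well, and the change then held in LSK cells only.

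**Figure D2:**
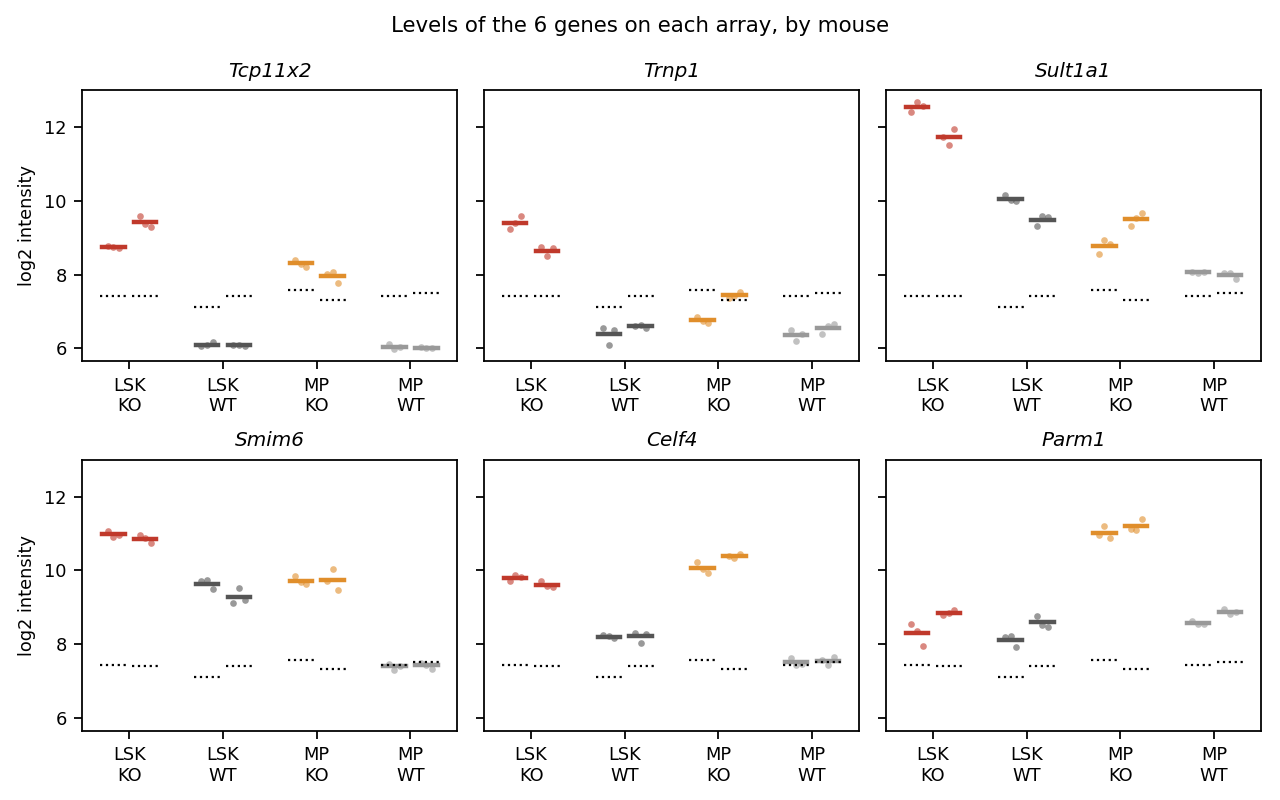
Log2 intensity (y axis) of each of the 6 genes in KO and WT LSK cells and in KO and WT myeloid progenitors (MP). Points are the 3 arrays of a mouse, solid lines the mouse means, and dotted lines the receptor bound of that mouse. Tcp11x2 and Trnp1 sit under the bound in all WT mice, whereas Sult1a1 and Parm1 sit over it in all 8 mice.

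Tcp11x2 was the gene with the clearest change between low and measurable levels. Its log2 value was 8.75 and 9.41 in KO LSK cells, against 6.10 and 6.08 in WT LSK cells. In myeloid progenitors it was 8.30 and 7.96 in KO mice, against 6.05 and 6.02 in WT mice. All 4 KO mice lay over the receptor bound and all 4 WT mice under it, with no overlap. In genes chosen on this difference, a lack of overlap between groups of 2 mice is a description, here and below. The KO minus WT difference was 2.99 ± 0.21 (SE) in LSK cells and 2.10 ± 0.21 in myeloid progenitors. Because the WT mice had only a bound, the ratios are at least 3.51-fold in LSK cells and at least 1.58-fold in myeloid progenitors, taken as the KO mean over the mean bound of the WT mice. KO LSK cells exceeded KO myeloid progenitors by 0.95, while the WT populations, 0.06 apart, were both under the bound. The 2 KO LSK mice differed by more than the 2 KO myeloid progenitor mice (SD 0.47 and 0.24, n = 2 each).

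Genes with the Tcp11x2 pattern were few. Of 17741 genes, 7773 lay under the bound in all 4 WT mice. Of these, 19 lay over it in all 4 KO mice and 13 also passed the test as higher in both populations, among 67 genes that passed as higher in both. Tcp11x2 is itself among the 13 and was chosen on its KO excess, so its place among them is a description only. Within the 13, Tcp11x2 had the largest difference in LSK cells, followed by Erfe with 1.73. In myeloid progenitors Erfe, which encodes the erythroid hormone erythroferrone, had 2.26 and Tcp11x2 2.10. Erfe is named here because of these values, and in KO LSK mouse 2 it was barely over the bound (7.427 against 7.424). These counts are for the 95th percentile alone. At the 99th percentile Tcp11x2 itself lay under the bound in both KO myeloid progenitor mice. The only other family members measured were Tcp11l1 and Tcp11l2, of which 0 of 2 passed in either population. Tcp11l1 was under the bound in all mice and Tcp11l2 lay between 8.16 and 9.21.

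Trnp1 was high in KO LSK cells and read near the low end elsewhere. Its log2 value was 9.40 and 8.65 in KO LSK cells, against 6.38 and 6.60 in WT LSK cells. Its value was 6.76 and 7.44 in KO myeloid progenitors, against 6.36 and 6.55 in WT myeloid progenitors. Both KO LSK mice lay over the bound and both WT LSK mice under it, while only 1 of the KO myeloid progenitor mice (mouse 8) lay over it, by 0.12. The difference was 2.54 ± 0.28 (SE) in LSK cells, a ratio of at least 3.38-fold, and 0.65 ± 0.28 in myeloid progenitors, where no ratio is given. The myeloid progenitor difference was 0.31 without mouse 8 and 0.98 without mouse 7. The LSK difference minus the myeloid progenitor difference was 1.89 ± 0.39. The WT values of the 2 populations overlapped.

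Sult1a1 was the gene with the highest WT level in LSK cells relative to the bound. Its log2 value was 12.54 and 11.73 in KO LSK cells, against 10.06 and 9.48 in WT LSK cells. The myeloid progenitors had 8.78 and 9.51 in KO mice, against 8.06 and 7.99 in WT mice. The groups of each population did not overlap, and WT LSK cells overlapped with KO myeloid progenitors. The difference was 2.36 ± 0.33 (SE) in LSK cells, a 5.14-fold ratio, and 1.12 ± 0.33 in myeloid progenitors, a 2.18-fold ratio. LSK cells exceeded myeloid progenitors in both genotypes, by 2.99 in KO and 1.75 in WT mice. Trnp1 and Sult1a1 were both higher in mouse 2 than in mouse 4 among KO LSK cells and in mouse 8 than in mouse 7 among KO myeloid progenitors, whereas their order of mice was opposite in both WT groups.

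Smim6 was higher in KO cells of both populations and higher in LSK cells than in myeloid progenitors of either genotype. Its log2 value was 10.98 and 10.86 in KO LSK cells, against 9.64 and 9.28 in WT LSK cells. In KO myeloid progenitors it was 9.72 and 9.75, against 7.40 and 7.43 in WT myeloid progenitors. WT LSK cells were thus well over the receptor bound, and WT myeloid progenitors were just under it, by 0.03 and 0.09. The difference was 1.46 ± 0.21 (SE) in LSK cells, a 2.75-fold ratio, and 2.32 ± 0.21 in myeloid progenitors, a ratio of at least 4.81-fold. The KO myeloid progenitors (mean 9.74) and the WT LSK cells (mean 9.46) were closest neighbours in level, and their means differed by less than the values of the 2 WT LSK mice did. The SERCA pumps, their other small inhibitors and genes of calcium handling in the endoplasmic reticulum formed a list of 16 measured genes, of which 0 passed in either direction in either population. The list median difference was 0.14 in LSK cells and 0.02 in myeloid progenitors. Atp2a2, the widely expressed SERCA pump, had a difference of 0.71 ± 0.20 in LSK cells (limma adjusted p = 0.0771) and 0.15 ± 0.20 in myeloid progenitors (limma adjusted p = 0.919), and is named because it is the target of the family of inhibitors.

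Celf4 was higher in KO cells of both populations, with the larger difference in myeloid progenitors. Its brightest probe, mMC013350, had log2 values of 9.80 and 9.61 in KO LSK cells, against 8.21 and 8.21 in WT LSK cells. In KO myeloid progenitors it had 10.07 and 10.39, against 7.51 and 7.55 in WT myeloid progenitors. No groups overlapped, and the order of levels was KO myeloid progenitors, KO LSK cells, WT LSK cells and WT myeloid progenitors, the last within 0.08 of the receptor bound. The difference was 1.50 ± 0.21 (SE) in LSK cells, a 2.83-fold ratio. It was 2.70 ± 0.21 in myeloid progenitors, a 6.50-fold ratio over WT values close to the bound. LSK cells exceeded myeloid progenitors by 0.68 in WT mice, and in KO mice LSK minus myeloid progenitors was -0.52.

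Parm1 differed between genotypes in myeloid progenitors and not beyond the spread of mice in LSK cells. Its brightest probe, mMR029472, had log2 values of 8.29 and 8.86 in KO LSK cells, against 8.11 and 8.59 in WT LSK cells. The probe read 11.02 and 11.21 in KO myeloid progenitors, against 8.58 and 8.88 in WT myeloid progenitors. The KO and WT mice overlapped in LSK cells, and both LSK groups overlapped with WT myeloid progenitors, so that KO myeloid progenitors alone stood apart. The difference was 2.39 ± 0.26 (SE) in myeloid progenitors, a 5.23-fold ratio, and 0.22 ± 0.26 in LSK cells. Without the WT mice that carried Kdm5d signal, the LSK difference of Parm1 was -0.02. For the other 5 genes the LSK difference without these mice lay between 1.50 and 3.00. The myeloid progenitor difference without them was 0.55 for Trnp1, 1.16 for Sult1a1 and between 2.12 and 2.68 for the other 4 genes.

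Celf4 and Parm1 had several probes each. The second probe of Celf4 (PH_mM_0015682) gave 7.83 and 7.57 in KO LSK cells against 6.63 and 6.61 in WT LSK cells, and 8.29 and 8.65 in KO myeloid progenitors against 6.40 and 6.30 in WT myeloid progenitors. Its differences, 1.08 ± 0.17 (SE) and 2.12 ± 0.17, ran the same way as those of the brightest probe. Here all WT mice were under the receptor bound and all KO mice over it. By this second probe the ratios are therefore at least 1.35-fold in LSK cells and at least 2.00-fold in myeloid progenitors. The third probe (PH_mM_0012450) read between 5.83 and 6.00 in all mice and gave differences of -0.02 ± 0.05 and 0.08 ± 0.05. The second probe of Parm1 (mMC004893) gave 9.08 and 9.31 in KO myeloid progenitors against 7.09 and 7.02 in WT myeloid progenitors, a difference of 2.14 ± 0.17, and overlapping values in LSK cells, with a difference of 0.10 ± 0.17. Whether the WT level counts as measurable therefore depended on the probe for both genes. The position of each probe in its transcript is not stated in these sources.

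**Figure D3:**
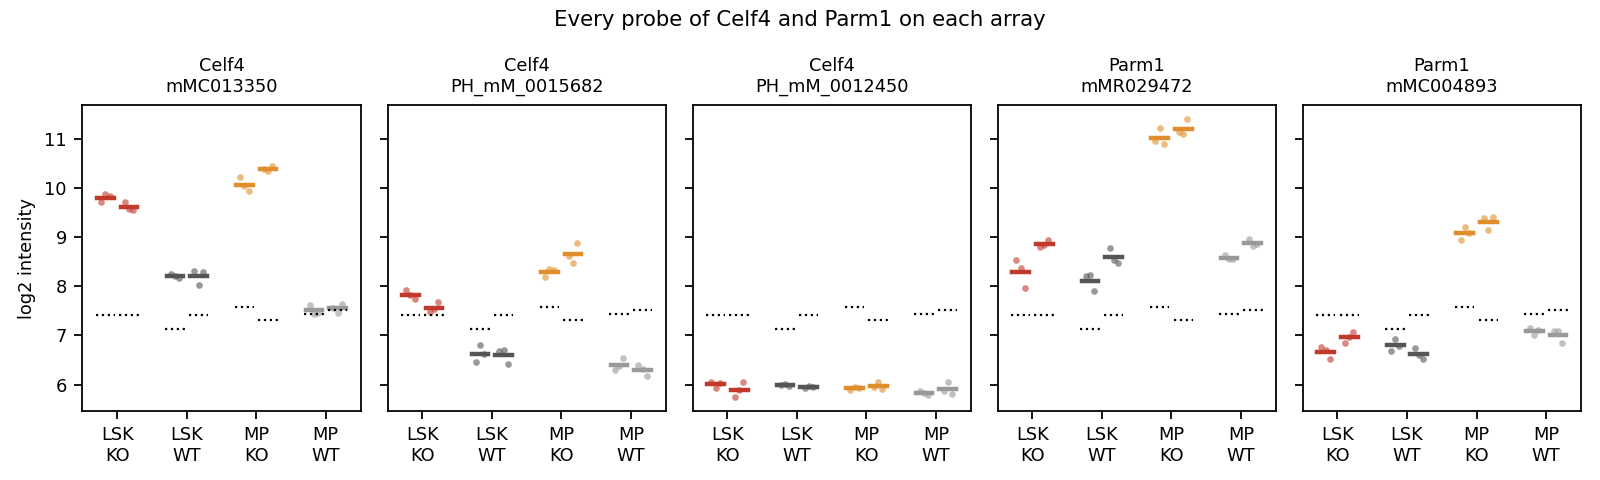
Log2 intensity (y axis) on every array for the 3 probes of Celf4 and the 2 probes of Parm1, in KO and WT LSK cells and in KO and WT myeloid progenitors (MP). Points are arrays, solid lines mouse means and dotted lines the receptor bound of the mouse. Probe PH_mM_0012450 of Celf4 stays under the bound in all 8 mice, and the other probes of a gene follow each other.

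Over all 17741 genes, limma called 1.74% higher and 2.90% lower in KO than in WT LSK cells at an adjusted p under 0.05, and 0.908% higher and 1.74% lower in KO than in WT myeloid progenitors. Of the 6 genes, 5 were called higher in LSK cells (all but Parm1) and 4 in myeloid progenitors (all but Trnp1 and Sult1a1). These counts were fixed by how the genes were chosen and are not evidence of a shift. By size of the signed difference, Tcp11x2 ranked 2, Trnp1 6 and Sult1a1 10 in LSK cells, while Celf4 ranked 67, Smim6 79 and Parm1 3306. In myeloid progenitors Celf4 ranked 4, Parm1 7, Smim6 9 and Tcp11x2 17, while Sult1a1 ranked 125 and Trnp1 436. The median difference of the 6 genes was 1.93 in LSK cells and 2.21 in myeloid progenitors, beside 0.02 and 0.0014 over all genes.

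**Figure D4:**
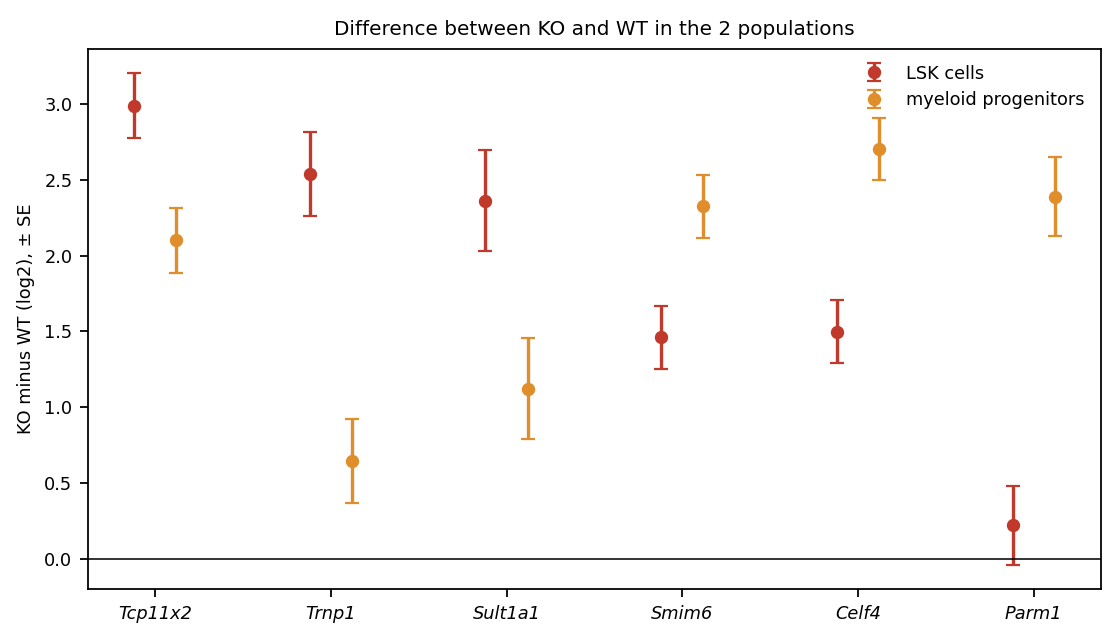
KO minus WT difference (log2, y axis) of each gene in LSK cells (red) and in myeloid progenitors (orange), with SE bars from limma. Tcp11x2, Trnp1 and Sult1a1 have the larger difference in LSK cells, and Smim6, Celf4 and Parm1 in myeloid progenitors.

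The genes fell on both sides when the populations were compared. The LSK difference minus the myeloid progenitor difference was 1.24 ± 0.47 (SE) for Sult1a1 and 0.89 ± 0.30 for Tcp11x2, beside the value for Trnp1 given above. It was -2.16 ± 0.37 for Parm1, -1.20 ± 0.29 for Celf4 and -0.86 ± 0.30 for Smim6. The contrasts that chose the genes enter this quantity, so it is given without a test. Over all genes, 0.0620% passed the test of this difference in either direction.

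The genes that followed each of the 6 most closely across the 8 mice differed from gene to gene. Likeness was measured by Pearson's r over 8 mouse means among 2770 genes whose group means spanned at least 1 log2, and since the mice form 4 groups, r mostly reflects the group means. Closest to Tcp11x2 were Cntnap1 (r = 0.991), Chac1 (r = 0.982) and Hs6st2 (r = 0.982). Closest to Trnp1 were Clic6 (r = 0.989), Arap1 (r = 0.978) and Slc9a8 (r = 0.978). Sult1a1 was followed most closely by Usp54 (r = 0.994), Map3k3 (r = 0.993) and Wtip (r = 0.992). For Smim6 the closest were Rxra (r = 0.987), Trib3 (r = 0.986) and Vash2 (r = 0.983). Celf4 had Perp (r = 0.979), Tcf7 (r = 0.979) and Podxl (r = 0.971), and Parm1 had Six2 (r = 0.971), Olfm1 (r = 0.966) and Cth (r = 0.963). Cth had KO minus WT differences of 1.03 in LSK cells and 2.56 in myeloid progenitors, where Parm1 had 0.22 and 2.39.

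Other genes of the tissues for which the 6 are known passed in both directions and in small numbers. Lists of neuronal, neural progenitor and glial, testis and germline, epithelial, liver and xenobiotic metabolism, and muscle genes held 111 measured genes without the 6. In LSK cells 3 of the 111 (2.70%) were called higher and 4 (3.60%) lower in KO mice. In myeloid progenitors 3 (2.70%) were called higher and 3 (2.70%) lower. Of all genes, 1.74% were called higher and 2.90% lower in LSK cells, and 0.908% and 1.74% in myeloid progenitors. The median difference of the 111 was 0.05 in LSK cells and 0.0018 in myeloid progenitors. All 8 mice lay under the receptor bound for 75 of the 111.

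Among the neuronal genes, the kind for which Celf4 is known, 0 of 18 passed in either direction in either population. Of 15 neural progenitor and glial genes, the kind for which Trnp1 is known, Eomes was lower in KO LSK cells, by a difference of -0.17 and under the bound in all mice, and 0 passed in myeloid progenitors. Of 28 testis and germline genes, the kind for which Tcp11 genes are known, the germ cell helicase Ddx4 was lower in KO LSK cells, at 7.20 and 6.97 against 9.29 and 8.90 in WT LSK cells (difference -2.01 ± 0.21 SE, limma adjusted p = 0.000702). Ldhc, a lactate dehydrogenase of sperm, was higher in KO myeloid progenitors, at 9.96 and 9.27 against 7.95 and 8.30 in WT myeloid progenitors (difference 1.49 ± 0.28 SE, limma adjusted p = 0.0170). The Ldhc call was lost without mouse 5, 6 or 7 (limma adjusted p up to 0.141), and the Eomes call without mouse 1, 2, 3 or 4 (up to 0.157).

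Epithelial genes held the highest differences among these lists in LSK cells, while in myeloid progenitors Ldhc of the testis list did. Of 22 measured, Lsr, a receptor of tricellular junctions, was higher in KO LSK cells, at 11.78 and 11.33 against 8.99 and 8.79 in WT LSK cells (difference 2.66 ± 0.26 SE, limma adjusted p = 0.000474). Lsr was also higher in KO myeloid progenitors, at 8.25 and 8.79 against 7.47 and 7.07 in WT myeloid progenitors (difference 1.25 ± 0.26 SE, limma adjusted p = 0.0320), a call that was lost without mouse 5, 6 or 8 (adjusted p up to 0.338). Epcam, an epithelial adhesion molecule, was higher in KO LSK cells, at 10.92 and 10.27 against 8.24 and 8.71 in WT LSK cells (difference 2.12 ± 0.38 SE, limma adjusted p = 0.0179), a call that was lost without mouse 1 or 2 (adjusted p up to 0.115). In myeloid progenitors Epcam had a difference of 1.33 ± 0.38 that missed the threshold (limma adjusted p = 0.155). The other 20 epithelial genes passed in neither population.

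Liver and muscle genes passed in both directions. Of 17 liver and xenobiotic metabolism genes, the kind for which Sult1a1 is known, the glutathione transferase Gstt1 was lower in KO LSK cells, with a difference of -1.22 ± 0.18 (limma adjusted p = 0.00320). The acetyltransferase Nat1 was lower in KO cells of both populations, with differences of -0.53 ± 0.13 in LSK cells (limma adjusted p = 0.0421) and -0.84 ± 0.13 in myeloid progenitors (limma adjusted p = 0.00641). The LSK call of Nat1 was lost whichever mouse was left out (adjusted p up to 0.233), and the myeloid progenitor call without mouse 7 (0.0512). Gsta4 was lower in KO myeloid progenitors, with a difference of -1.05 ± 0.23, and Apoa1 was higher there, with 0.62 ± 0.12. Of 11 muscle genes, the troponin gene Tnni3 was higher in KO LSK cells, with a difference of 0.96 ± 0.18. The muscle creatine kinase Ckm was lower in KO myeloid progenitors, with -0.87 ± 0.17. Apoa1 and Ckm lay under the receptor bound in all mice. The call was lost for Gsta4 without mouse 1, 3, 5, 6, 7 or 8 (adjusted p up to 0.250), for Apoa1 without mouse 5, 6 or 8 (0.171), for Tnni3 without mouse 2 or 3 (0.0616) and for Ckm without mouse 6, 7 or 8 (0.205). Of the 7 tissue list calls in LSK cells, those of Lsr, Ddx4 and Gstt1 held with any 1 mouse left out, and of the 6 in myeloid progenitors 0 did.

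**Figure D5:**
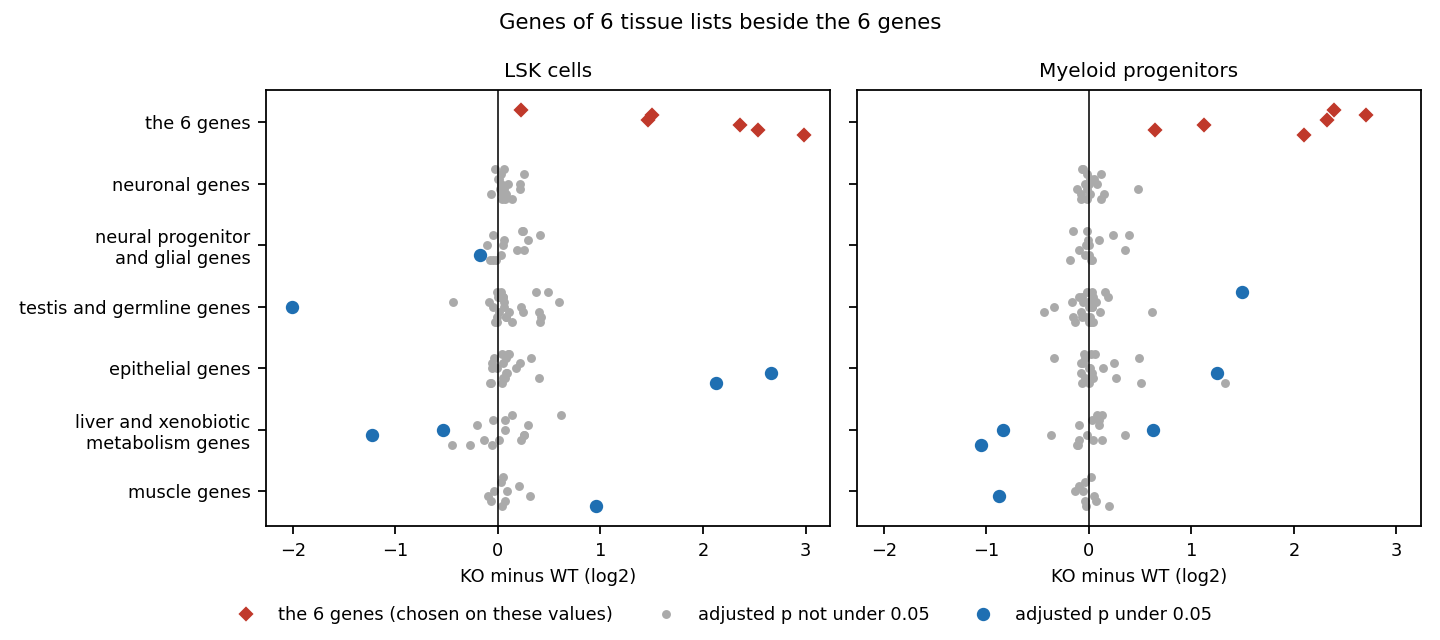
KO minus WT difference (log2, x axis) in LSK cells (left) and in myeloid progenitors (right) for the 6 genes (red diamonds, chosen on these values) and for the genes of 6 tissue lists (points, a row per list). Larger blue points passed the limma test at an adjusted p under 0.05, and most of the remaining points lie close to 0.

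The families of the 6 genes did not move as a whole in either population. Among 13 sulfotransferases and enzymes of the sulfate donor, 0 passed in LSK cells and Papss2, an enzyme that makes the sulfate donor, was lower in KO myeloid progenitors, at 8.75 and 8.58 against 10.15 and 10.19 in WT myeloid progenitors (difference -1.50 ± 0.22 SE, limma adjusted p = 0.00439). Among 17 CELF genes and neuronal splicing regulators, 0 passed in LSK cells and Elavl4, a neuronal RNA-binding protein, was higher in KO myeloid progenitors, at 7.97 and 8.11 against 6.97 and 6.41 in WT myeloid progenitors (difference 1.35 ± 0.23 SE, limma adjusted p = 0.0100). That call was lost without mouse 6 or 8 (adjusted p up to 0.0990). Celf2, which is expressed in blood cells, had differences of -0.12 ± 0.22 in LSK cells and 0.23 ± 0.22 in myeloid progenitors, and is named because it shares Celf4's family.

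Membrane mucins and sialomucins, the class to which Parm1 belongs, moved in both directions. Of 14 measured, Podxl, a sialomucin of podocytes and of stem and endothelial cells, was higher in KO cells of both populations. It had 11.11 and 12.10 in KO LSK cells against 9.35 and 9.80 in WT LSK cells (difference 2.03 ± 0.41 SE, limma adjusted p = 0.0287). The KO myeloid progenitors had 12.03 and 12.83 against 7.66 and 8.37 in WT myeloid progenitors (difference 4.42 ± 0.41 SE, limma adjusted p = 0.000976). Emcn, an endothelial and stem cell sialomucin, was lower in KO cells of both, by differences of -3.01 ± 0.26 in LSK cells and -1.45 ± 0.26 in myeloid progenitors. In KO LSK cells Muc1 was also higher, with 0.33 ± 0.08, though under the receptor bound in all mice. In KO myeloid progenitors Muc13 was higher, with 0.69 ± 0.16, and Cd34 lower, with -1.18 ± 0.18. The call was lost for Podxl in LSK cells without mouse 1, 3 or 4 (limma adjusted p = 0.165 at most) and for Emcn in myeloid progenitors without mouse 5, 7 or 8 (0.0964). It was also lost for Muc1 without any mouse but 4 (0.235), for Muc13 without any mouse but 2 and 4 (0.349) and for Cd34 without mouse 8 (0.0834). Over the 5 family lists together, 2 of 62 genes (3.23%) were called higher and 1 (1.61%) lower in LSK cells, and 3 (4.84%) were called each way in myeloid progenitors. The shares over all genes were 1.74% higher and 2.90% lower in LSK cells, and 0.908% and 1.74% in myeloid progenitors.

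Markers of other cells that a marrow sort could hold were read beside these values. For the counts that follow, the shares over all genes were 1.74% higher and 2.90% lower in LSK cells. They were 0.908% higher and 1.74% lower in myeloid progenitors, and the lists were not tested against them. Of 18 stromal and bone markers, 0 passed in either population, and the list mean by mouse was 7.14 to 7.25 in KO and 7.21 to 7.36 in WT LSK cells, and 7.08 to 7.20 in KO and 7.18 to 7.19 in WT myeloid progenitors. Of 15 endothelial markers, Cldn5 was higher and Tek and Emcn were lower in KO LSK cells, and Emcn was lower in KO myeloid progenitors. Their list mean was 8.75 to 8.99 in KO and 8.88 to 8.94 in WT LSK cells, and 8.10 to 8.18 in KO and 8.10 to 8.14 in WT myeloid progenitors. Cldn5, a tight junction protein of endothelium, was 11.40 and 11.17 in KO LSK cells against 7.90 and 7.47 in WT LSK cells (difference 3.60 ± 0.24 SE, limma adjusted p = 7.56e-05). Of 19 markers of mature blood cells, 3 passed as higher (Mcpt8, Cd68 and Nkg7) and 3 as lower (Pf4, Cd3d and Ms4a1) in LSK cells. In myeloid progenitors 1 passed as higher (Mcpt8) and 2 as lower (Pf4 and Ms4a1). Ms4a1 lay under the receptor bound in all mice. The mature blood list mean was 9.43 to 9.53 in KO and 9.34 to 9.39 in WT LSK cells, and 9.49 to 9.59 in KO and 9.52 to 9.62 in WT myeloid progenitors. Mcpt8, a basophil protease, had differences of 2.42 ± 0.18 in LSK cells and 1.46 ± 0.18 in myeloid progenitors, and both calls held whichever mouse was left out. Of 16 markers of progenitor identity, 2 passed as higher in KO LSK cells (Ctsg and Elane, granule proteases of granulocyte progenitors), and in KO myeloid progenitors 0 passed as higher and 1 (Cd34) as lower. Mpo, a further granule gene, did not pass in LSK cells, with a difference of 0.44 ± 0.25 (limma adjusted p = 0.455). Without 1 mouse the call was lost for Nkg7 (mouse 1 or 3), Pf4 (mouse 3 or 4 in LSK cells, 5, 7 or 8 in myeloid progenitors), Cd3d (any of mice 3 to 8), Ms4a1 in myeloid progenitors (any of mice 5 to 8), Ctsg (any mouse but 3) and Elane (mouse 1, 4, 5 or 6), with adjusted p up to 0.234. A gain of such cells and more RNA per cell cannot be told apart in bulk samples, and their part in the values of the 6 genes was not tested.

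The nearest measured genes on either side of the 6 were also read. Chosen as the 3 nearest measured protein-coding genes on each side, 36 genes entered, after the values of the 6 had been seen. In LSK cells 2 of the 36 (5.56%) were called higher and 1 (2.78%) lower, and in myeloid progenitors 2 (5.56%) were called higher and 0 lower. Over all genes, 1.74% were called higher and 2.90% lower in LSK cells, and 0.908% and 1.74% in myeloid progenitors. Whether the 36 differ from all genes was not tested. The next gene to Trnp1, the keratinocyte differentiation gene Kdf1, was 7.44 and 7.52 in KO LSK cells against 6.64 and 6.47 in WT LSK cells (difference 0.92 ± 0.12 SE, limma adjusted p = 0.00204). In myeloid progenitors Kdf1 was 6.45 and 6.57 in KO mice against 6.40 and 6.51 in WT mice (difference 0.06 ± 0.12 SE, limma adjusted p = 0.966). Kdf1 and Trnp1 therefore shared a difference in LSK cells, where that of Kdf1 held with any 1 mouse left out, and Kdf1 read just over the receptor bound in KO LSK cells. The other calls in KO LSK cells were those of Itgb4 near Smim6, higher by 1.07, and Cdkl2 near Parm1, lower with -0.48. In KO myeloid progenitors they were Nupr1 near Sult1a1, higher by 0.99, and Fhod3 near Celf4, higher by 0.71. Cdkl2 and Fhod3 lay under the receptor bound in all mice. The call was lost for Itgb4 without any mouse but 4 (adjusted p up to 0.132), for Cdkl2 without mouse 2 (0.0578), for Nupr1 without mouse 5, 6 or 8 (0.273) and for Fhod3 without any of mice 5 to 8 (0.215). The 6 neighbours of Tcp11x2 on the X chromosome passed in neither population.

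Replicate error set the resolution of all these values. Over the 6 genes, the SD of the 3 arrays of a mouse ran from 0.00778 to 0.30 with a median of 0.10 on the log2 scale. The SD of the 2 mice of a group ran from 0.00230 to 0.57 with a median of 0.19.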

How the data were processed

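RNA of sorted mouse bone marrow cells was measured on 24 one-colour arrays of 8 mice. The deposited values are log2 intensities that the authors normalized between arrays. The log2 scale (5.66 to 15.9) and the normalization were read from the values, whose sorted columns differ by at most 0.0451 at any rank. Per the submitters' processing notes limma was used, with no version or role given. Total RNA was amplified and coupled to Cy5, per the labels' protocols, and the scanner and background correction are not stated there. The number of mice, 2 in each group, limits the precision of these arrays.

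Of 22439 probes, 18213 were named by a current symbol and 2126 by a synonym from a RefSeq gene table of GRCm38.p6, which was used for names and neighbours only. A further 36 kept the array's name and 2064 had none. No probe was filtered out, so all 6 genes were fitted. Promoter sequences came from RefSeq (GRCm38.p6), and 5 of the 6 genes matched. The forkhead and YY1 motifs and the neighbours were chosen after seeing the data.

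The 3 arrays of a mouse, which the labels number, were averaged, and the mouse was the replicate. The labels do not say whether mice of a group were litter mates, so p-values refer to these mice only. The 8 means were fitted in 4 groups by lmFit of limma 3.58.1 (R 4.3.3). The eBayes step used its trend and robust options, with 4 residual and a median of 6.91 prior degrees of freedom. Each SE thus pools the spread within all 4 groups and draws on other probes, and is not the spread of the compared mice alone. P-values are two-sided. The Benjamini-Hochberg adjustment ran over the 22439 probes, a gene was called at an adjusted p under 0.05, and the fit was tested on simulated data. Members and gene lists were chosen with earlier results of these data known. Named genes are the 6, Bap1, the 3 closest genes by Pearson's r, up to 4 called genes per list and contrast, the Y-linked genes, and Kit and Ly6a as a check of the sort. Other names, Flt3 among them, were chosen after their values were seen. Array numbers did not pair arrays across mice (median r of deviations 0.00567 for the same number and 0.00488 for other numbers).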

Additional observations from a re-analysis of the deposited data

Results flagged for a closer look

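Among the genes of the lists, Cldn5 had a KO effect that differed between the populations by a test of the difference itself. Its LSK difference of 3.60 minus its myeloid progenitor difference of 0.48 was 3.12 ± 0.34 (SE, limma adjusted p = 0.0124). Cldn5 was 7.41 and 7.76 in KO myeloid progenitors, against 6.87 and 7.33 in WT myeloid progenitors. With 1 mouse left out the difference lay between 2.89 and 3.35 (adjusted p up to 0.0425), and without trend and robust options it missed the threshold (adjusted p = 0.142). The 6 genes were chosen on the effects themselves and were not tested. Groups of 2 mice are too small for a search for outlying mice.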

How the results depend on the processing

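The calls of the 6 genes, 5 in LSK cells and 4 in myeloid progenitors, held under the alternatives tried, except that with all arrays and the mouse as a random block Trnp1 and Sult1a1 were also called in myeloid progenitors. Because the 6 genes were chosen on these effects, refits of these mice are not evidence of a shift. Of 196 alternative values of their differences, 193 moved by less than the spread between mice. The exceptions were Celf4 with the mean of its probes (0.85 in LSK cells, 1.63 in myeloid progenitors) and Smim6 with the median of arrays (2.27 in myeloid progenitors). Settings that change only the variance model or the probes entered return the same difference. Leaving out a mouse shifts the mean of its group by less than the SD of that group's mice. The count of 193 was thus largely fixed in advance and is no measure of robustness. The number of the 6 over the receptor bound in both WT myeloid progenitor mice was 3, and 1 at the 99th percentile. Counts over all genes depended on the setting. In LSK cells 824 genes were called, against 479 with the compared groups alone, 2671 with the mouse as a random block, 549 without trend and robust options, 331 without the mice with Y-linked signal, and 430 to 968 with 1 mouse left out. In myeloid progenitors the count was 469, against 1629, 288, 243 and 196 to 546 in the same settings but the groups alone. For the difference between populations it was 11, against 31 among brighter probes, 454, 0, 49 and 10 to 117. With the array number added as a replicate block to the mouse block, the counts were 2570, 1549 and 402. Tissue list genes called higher in LSK cells, 3, became 9 with the mouse as a random block, 7 with the replicate block, 1 without the mice with Y-linked signal and 2 to 4 with 1 mouse left out. Those called lower there, 4, became 6 with either block, and 2 among brighter probes, with the groups alone and without trend. In myeloid progenitors the 3 called higher became 6 with either block, 0 without trend or without the mice with Y-linked signal, and 0 to 3 with 1 mouse left out, and the 3 called lower became 1 among brighter probes and without trend, 0 without the mice with Y-linked signal, and 0 to 3. The cause of these shifts was not tested, beyond that fewer mice or probes entered some fits and that arrays of a mouse are not independent. Leaving out a mouse leaves its group with 1, assumed to vary like the other groups. A level under the receptor bound is a limit, not a measurement.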
